A study of Mus musculus with 18 samples.

Results

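A set of 9 secreted factor and receptor genes of the inflammatory and growth signalling that connective tissue cells send to blood cells was followed across mouse embryoid bodies. They were the chemokine genes Cxcl1, Cxcl5, Cxcl12, Ccl2 and Ccl7, the cytokine genes Il6, Csf1 and Lif, and Il1rl1, which encodes the receptor of interleukin-33. The 9 genes were picked by symbol out of 54446 gene identifiers, with levels and changes in these same libraries already known, so their values are a description and the tests beside them are not independent evidence. Embryoid bodies are aggregates in which embryonic stem cells differentiate, here from C57BL/6 cells cultured for 7 days without LIF, and their poly(A) RNA was sequenced in 18 libraries. The series asks how inhibitors of the histone H3K27 methylation machinery act on expression changes that follow loss of Mettl14. Mettl14 and Mettl3 encode the paired subunits of the enzyme that writes N6-methyladenosine on mRNA.

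There were 6 groups of 3 libraries. The Mettl14 line gave a control group, a conditional knockout (labelled CKO) and the same knockout with 5 µM GSK343, which inhibits the H3K27 methyltransferase EZH2. The Mettl3 line gave a control, a CKO and the CKO with 5 µM GSK-J4, which inhibits the H3K27 demethylases KDM6A and KDM6B. Stem cells of every group had been kept with LIF, CHIR99021 and PD0325901 before differentiation in serum medium, and the knockouts without inhibitor received DMSO. No control was given an inhibitor, so an inhibitor's action without the knockout cannot be told apart from its action in it. No label says that the replicates came from separate cultures or how many clones each line holds, so the p-values reflect nothing but how far these samples scatter, and that scatter may be technical.

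Chemokines are small secreted proteins that draw leukocytes along a gradient by binding G protein-coupled receptors. Cxcl1 and Cxcl5 act on neutrophils through Cxcr2, Ccl2 and Ccl7 on monocytes mainly through Ccr2, and Cxcl12 retains blood stem cells and leukocytes through Cxcr4. Il6 and Lif signal through the shared receptor subunit Il6st (gp130) to JAK kinases and STAT3, and Csf1 maintains macrophages through Csf1r. In fibroblasts many of these genes are induced by NF-κB, with C/EBP and AP-1 factors, and several of their mRNAs are short-lived because AU-rich elements in their 3′ untranslated regions (UTRs) recruit decay proteins.

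Total gene counts ran from 721853 to 20714764 per library in the Mettl14 line and from 3395675 to 32540164 in the Mettl3 line. The shallowest libraries were replicate 3 with GSK343 (721853) and Mettl14 CKO replicate 3 (1303697). Levels below are CPM (counts scaled to equal library totals) scaled by the trimmed mean of M-values (TMM), which evens out composition between libraries. The fibroblast and mesenchyme markers (12 genes, among them Col1a1, Col3a1 and Vim) summed to between 19879 and 36620 CPM in the 15 libraries without GSK-J4 and to between 9828 and 16709 CPM with it. Pluripotency markers (8 genes) summed to between 21.96 and 158 CPM. Mean Col1a1 was 6412 CPM in the Mettl3 CKO and 145 CPM with GSK-J4. The 12 macrophage and monocyte markers summed to at most 239 CPM in any library. Of these, Fcgr1 and C1qb were each at 0 in 17 of the 18 libraries and Adgre1 in 14, whereas Ptprc was at 0 in 7, Csf1r in 3, Lyz2 in 3 (reaching 185 CPM), Cd14 in 1 and Cd68 in none (up to 49.6 CPM). Mitochondrially encoded mRNAs made up 0.112% to 0.244% of counts in the GSK-J4 libraries and 1.29% to 3.24% in the others. Mettl14 was at 17.7, 19.2 and 17.6 CPM in its control, 17.1, 24.6 and 20.2 in its CKO and 12.5, 17.7 and 13.1 with GSK343, and Mettl3 at 20.1, 34.1 and 18.8 in its control, 25.9, 6.895 and 17.8 in its CKO and 6.95, 23.9 and 11.1 with GSK-J4. Neither CKO lay wholly below its control, and since the deleted part of each gene is not given in the sources used here, these whole-gene levels do not check the knockout labels. These bulk libraries do not show which cells carried the 9 mRNAs, and fewer cells of a type and less RNA per cell cannot be told apart.

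The promoters of Cxcl1, Il6, Lif and Cxcl12 are shown first because the 3 former genes were far lower in the Mettl3 controls than in the Mettl14 controls and Cxcl12 was higher. Each stretch runs from 200 to 21 bases before the transcription start on the plus strand (RefSeq, GRCm38.p6), and capitals mark a match to the NF-κB consensus.
Cxcl1, chr5:90891045-90891224: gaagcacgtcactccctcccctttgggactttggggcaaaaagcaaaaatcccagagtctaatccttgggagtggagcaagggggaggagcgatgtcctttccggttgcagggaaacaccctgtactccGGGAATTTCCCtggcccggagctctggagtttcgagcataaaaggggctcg
Il6, chr5:30012914-30013093: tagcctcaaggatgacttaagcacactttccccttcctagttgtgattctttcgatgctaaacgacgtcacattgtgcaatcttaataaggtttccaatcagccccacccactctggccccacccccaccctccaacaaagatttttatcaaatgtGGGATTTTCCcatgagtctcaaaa
Lif, chr11:4257368-4257547: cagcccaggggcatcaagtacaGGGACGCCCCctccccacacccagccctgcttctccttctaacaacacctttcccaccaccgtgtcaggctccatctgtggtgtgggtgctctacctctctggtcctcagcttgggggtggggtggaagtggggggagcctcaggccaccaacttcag
Cxcl12, chr6:117168335-117168514: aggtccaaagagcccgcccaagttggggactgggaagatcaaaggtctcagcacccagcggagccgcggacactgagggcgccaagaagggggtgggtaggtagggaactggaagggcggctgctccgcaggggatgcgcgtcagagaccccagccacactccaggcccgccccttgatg
RefSeq windows were at hand for 6 of the 9 genes, and the 250 bases before the start were searched on both strands. Cxcl5, Ccl2 and Ccl7, which were also lower in the Mettl3 controls, had no window. Cxcl1 matched the NF-κB consensus from -71 to -61 (counting both strands), Il6 from -44 to -35, Lif from -178 to -169 and Csf1, not printed, from -154 to -145, where 7.25% of 32851 windows of 27025 genes held a match. The AP-1 motif TGANTCA occurred before Il6 and Lif, against 6.75% of windows, and in neither printed stretch. No window of these genes held the cAMP response element TGACGTCA (1.55% of windows) or, on the gene's strand, TATAAA (7.59%). A match describes letters, not binding, and as the printed genes were chosen by their levels, the matches are no test of the line difference.

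The AU-rich decay element was searched as the 9-base form TTATTTATT and its core ATTTA in the 3′ UTR of 1 transcript a gene (GENCODE M21). Only Cxcl1 and Lif among the 9 genes held the longer form, at 2 places each, against 6.97% of 21018 protein-coding genes. The 3′ UTR has 592 bases in Cxcl1 and 3180 in Lif, beside a median of 798 over those genes, and a longer one offers more places for a match. These places are printed with 10 bases on either side, capitals marking the element, because Cxcl1 had the largest fold difference of the 9 genes between the control groups.
Cxcl1, 102 bases after the stop codon: atttatgtatTTATTTATTccacaaagtg
Cxcl1, 395 bases after the stop codon: agaatgtcagTTATTTATTgaaagtcgtc
Lif, 2715 bases after the stop codon: aaaggggcctTTATTTATTatttaaaact
Lif, 3078 bases after the stop codon: cagattatttTTATTTATTcaatgtcata
The core ATTTA was densest in Il6, with 14.1 per kilobase of 3′ UTR, and in Cxcl1, with 11.8. Ccl7 had 4.60, Cxcl5 4.5, Ccl2 3.64, Lif 2.20 and Csf1 1.89 per kilobase. Il1rl1 (0.924) and Cxcl12 (0.771) lay below the median of 1.13 over all these genes.

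Per kilobase of exon, Ccl2 was the most abundant of the 9 mRNAs in the Mettl14 controls, at 925 ± 119 CPM per kb (mean ± SD, n = 3 libraries). Ccl7 followed at 465 ± 115 and Cxcl1 at 321 ± 85.7 CPM per kb, and Cxcl12 was last at 5.66 ± 1.38. In the Mettl3 controls Ccl7 (120.4 ± 9.16 CPM per kb) and Ccl2 (92.9 ± 11.9) led, Cxcl12 stood after Csf1 at 14.6 ± 1.05 and Cxcl1 was last at 1.54 ± 1.72. The plot of levels by library shows the 9 genes on 1 log scale.

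**Figure D1:**
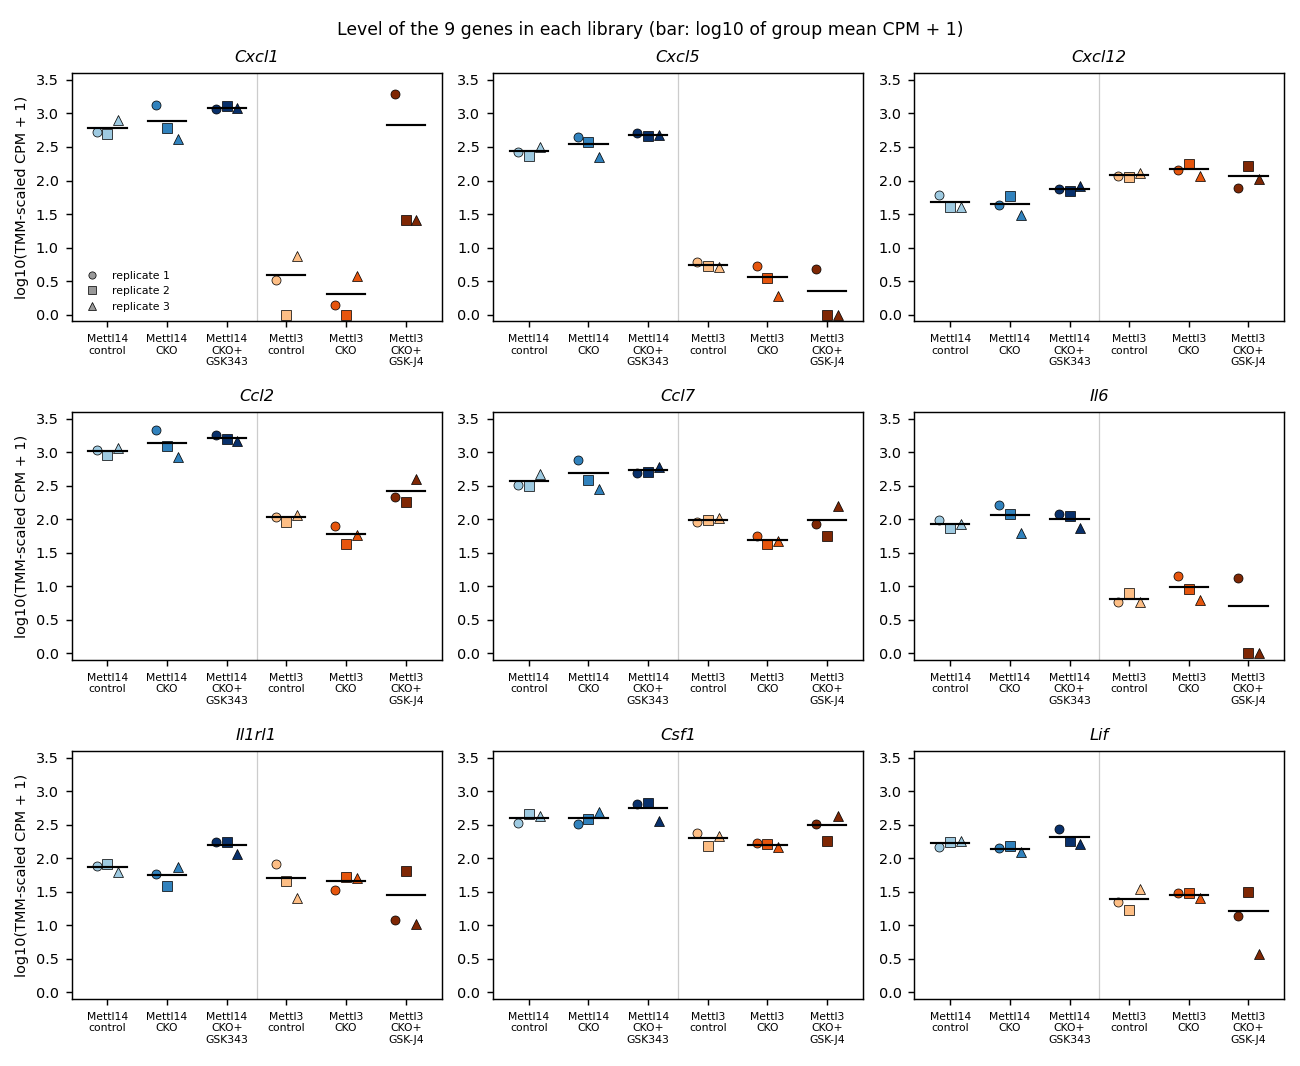
Level of each of the 9 genes in all 18 libraries (points, 1 panel a gene; the vertical axis is log10 of TMM-scaled CPM plus 1; 6 groups of 3 libraries, symbols by replicate, bars at the group means). Cxcl1, Cxcl5, Ccl2, Ccl7, Il6 and Lif lie lower in the Mettl3 controls than in the Mettl14 controls without overlap, and Cxcl1 with GSK-J4 spreads from 24.3 to 1932 CPM.

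Cxcl1 (Ensembl ENSMUSG00000029380, chr5:90891241-90893115 on the plus strand, GRCm38) encodes a main neutrophil attractant. Its levels in replicates 1 to 3 were 523, 496 and 787 CPM in the Mettl14 control, 1325, 604 and 419.9 in the CKO and 1172, 1283 and 1206 with GSK343. In the Mettl3 line they were 2.29, 0 and 6.36 CPM in the control, 0.4002, 0 and 2.75 in the CKO and 1932, 24.3 and 24.5 with GSK-J4. Thus the gene was near 0 in the Mettl3 control and CKO. With GSK-J4 a single library, replicate 1, was that high, and at 1932 CPM it lay above every Mettl14-line library. In order of group means Cxcl1 ran from GSK343 (1221 ± 56.9 CPM) over the Mettl14 CKO, the GSK-J4 group (660.3 ± 1101) and the Mettl14 control to the Mettl3 control and CKO. Of these neighbours, only the Mettl14 control and the Mettl3 control did not overlap.

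Cxcl5 (chr5:90759360-90761624), another neutrophil attractant of the same gene cluster, lay at 266, 229 and 318 CPM in the Mettl14 control, 448, 372 and 219.6 in the CKO and 506, 462 and 476 with GSK343. The GSK343 libraries lay above all 6 others of the line. The Mettl3 control held 5.09, 4.303 and 4.06 CPM, the CKO 4.34, 2.51 and 0.883 and the GSK-J4 group 3.84, 0 and 0. No Mettl3 library came near the lowest Mettl14 library, and replicates 2 and 3 with GSK-J4 had no count, where 3 counts would have been 0.362 and 0.618 CPM before TMM scaling. Unlike Cxcl1, replicate 1 with GSK-J4 did not stand high.

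Ccl2 (chr11:82035571-82037453), the chief monocyte attractant, measured 1069, 909 and 1179 CPM in the Mettl14 control, 2117, 1233 and 839.8 in the CKO and 1809, 1554 and 1466 with GSK343. The CKO libraries overlapped both neighbours, with replicate 1 the highest of all 18. In the Mettl3 line Ccl2 was 109, 90.7 and 117 CPM in the control, 78.9, 42.4 and 57.6 in the CKO and 212, 181 and 399 with GSK-J4. These 3 groups did not overlap: the CKO was lowest and the GSK-J4 libraries highest, though still below every Mettl14 library. The predicted gene on the strand opposite Ccl2, Gm17268, shares 0 exon bases with it and had 0 counts.

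Ccl7 (chr11:82045712-82047525), which lies next to Ccl2 and also attracts monocytes, was at 326, 312 and 479 CPM in the Mettl14 control, 780.0, 391 and 281 in the CKO and 497, 505 and 607 with GSK343. Its order of groups in the Mettl14 line was that of Ccl2, and the GSK343 libraries lay above all the controls. The Mettl3 control gave 88.99, 96.6 and 104 CPM, the CKO 55.3, 41.9 and 46.1 and the GSK-J4 group 85.6, 54.5 and 155. All CKO libraries lay below its control, and the GSK-J4 libraries spanned the control's range.

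Cxcl12 (chr6:117168535-117181367), the homeostatic chemokine of stromal cells, was the gene whose lines stood the other way round. It was at 59.3, 39.7 and 39.9 CPM in the Mettl14 control, 41.6, 57.6 and 29.9 in the CKO and 74.1, 68.03 and 81.5 with GSK343, the last above the other 6 libraries. The Mettl3 control held 115, 114 and 129 CPM, the CKO 141, 178 and 116 and the GSK-J4 group 76.3, 164 and 106. The 3 Mettl3 groups overlapped one another, and all of their libraries but GSK-J4 replicate 1 lay above every Mettl14 library.

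Il6 (chr5:30013114-30019981), a cytokine of acute inflammation, was at 96.6, 73.9 and 85.4 CPM in the Mettl14 control, 164, 118 and 62.4 in the CKO and 120.3, 110.4 and 74.2 with GSK343, with all 3 groups overlapping. In the Mettl3 line it was at 4.82, 6.85 and 4.81 CPM in the control, 13.1, 8.15 and 5.298 in the CKO and 12.5, 0 and 0 with GSK-J4. No Mettl3 library reached the lowest Mettl14 library, and replicates 2 and 3 with GSK-J4 had no count. Lif (chr11:4257557-4272514), the related cytokine that keeps mouse stem cells undifferentiated, was at 144, 175 and 178 CPM in the Mettl14 control, 141, 149 and 123 in the CKO and 273, 179 and 161 with GSK343. The Mettl3 control held 20.96, 15.7 and 33.7 CPM of Lif, the CKO 28.9, 28.8 and 24.5 and the GSK-J4 group 12.9, 29.9 and 2.699. As for Il6, the lines did not overlap, and the Mettl3 groups overlapped one another.

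Csf1 (chr3:107741048-107760469, minus strand), the macrophage growth factor, was at 329, 449 and 429.6 CPM in the Mettl14 control, 319.7, 381 and 493 in the CKO and 644, 668 and 364 with GSK343. It was at 234, 152 and 211 CPM in the Mettl3 control, 166, 161 and 144 in the CKO and 323, 178 and 424 with GSK-J4. Of the 3 GSK-J4 libraries, 2 reached Mettl14 levels. Il1rl1 (chr1:40429570-40465415), which in its soluble form also binds interleukin-33 as a decoy, was at 75.98, 80.5 and 60.8 CPM in the Mettl14 control, 58.2, 37.2 and 72.03 in the CKO and 176, 177 and 115 with GSK343. The Mettl3 control held 81.98, 44.3 and 24.7 CPM of Il1rl1, the CKO 32.8, 51.1 and 49.96 and the GSK-J4 group 11.03, 62.6 and 9.45. The GSK343 libraries were above all others, and the remaining 5 groups overlapped their neighbours in order of level.

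More of the 9 genes were called between the control groups of the lines than in any other comparison. Cxcl1, Cxcl5, Ccl2, Ccl7, Il6 and Lif were lower and Cxcl12 was higher in the Mettl3 controls, so 7 of the 9 genes were called at an adjusted p under 0.05 (edgeR quasi-likelihood test, Benjamini-Hochberg over 16326 genes), where 0.913% of all genes were called. In mean CPM, Cxcl1 was 209-fold, Cxcl5 60.4-fold, Il6 15.5-fold, Ccl2 9.96-fold, Lif 7.06-fold and Ccl7 3.86-fold lower, and Cxcl12 2.58-fold higher. By library, 7 genes lay wholly lower, against 9.77% of the 14967 genes at a mean of 1 CPM or more, and Cxcl12 lay wholly higher, against 8.78%. The share of called genes was 0.76% lower and 0.153% higher. The genes were listed with this difference known, and the lines also differ in library depth and possibly in batch, which cannot be told apart from the line.

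Fitted log2 differences (± SE, n = 3 per group, Mettl3 control minus Mettl14 control) were -7.70 ± 1.19 for Cxcl1, -5.92 ± 0.54 for Cxcl5, -3.95 ± 0.78 for Il6 and -3.31 ± 0.31 for Ccl2. They were -2.82 ± 0.45 for Lif, -1.95 ± 0.33 for Ccl7 and 1.37 ± 0.28 for Cxcl12. Ccl2, Cxcl5, Lif and Ccl7 kept the call in all 6 fits without 1 library and under the 8 other settings. Csf1 (-1.02 ± 0.28, adjusted p = 0.13) and Il1rl1 (-0.52 ± 0.51, adjusted p = 1.00) were not called, though Csf1 did not overlap between the groups. Csf1 was called lower under 5 of the 8 other settings (adjusted p = 0.000423 with limma voom, 0.00649 with only the groups of the contrast, 0.0101 with no filter, 0.0105 without the GSK-J4 libraries and 0.0426 with DESeq2), with differences of -1.02 to -1.01. The other 3 calls were each lost when certain single libraries were left out. Cxcl1 lost its call without Mettl3 control replicate 1 (-7.56, adjusted p = 0.0677). Its difference rested on 50, 0 and 180 counts in the Mettl3 controls and was -9.10 without replicate 3 and -7.10 without replicate 2. Il6 lost it without Mettl14 control replicate 1 (adjusted p = 0.0578) or Mettl3 control replicate 1, 2 or 3 (0.14, 0.108 and 0.127), and with DESeq2 (0.0575). Cxcl12 lost it without any of these 3 or Mettl14 control replicate 2 or 3, with differences of 1.27 to 1.40 (adjusted p = 0.059 to 0.157).

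**Figure D2:**
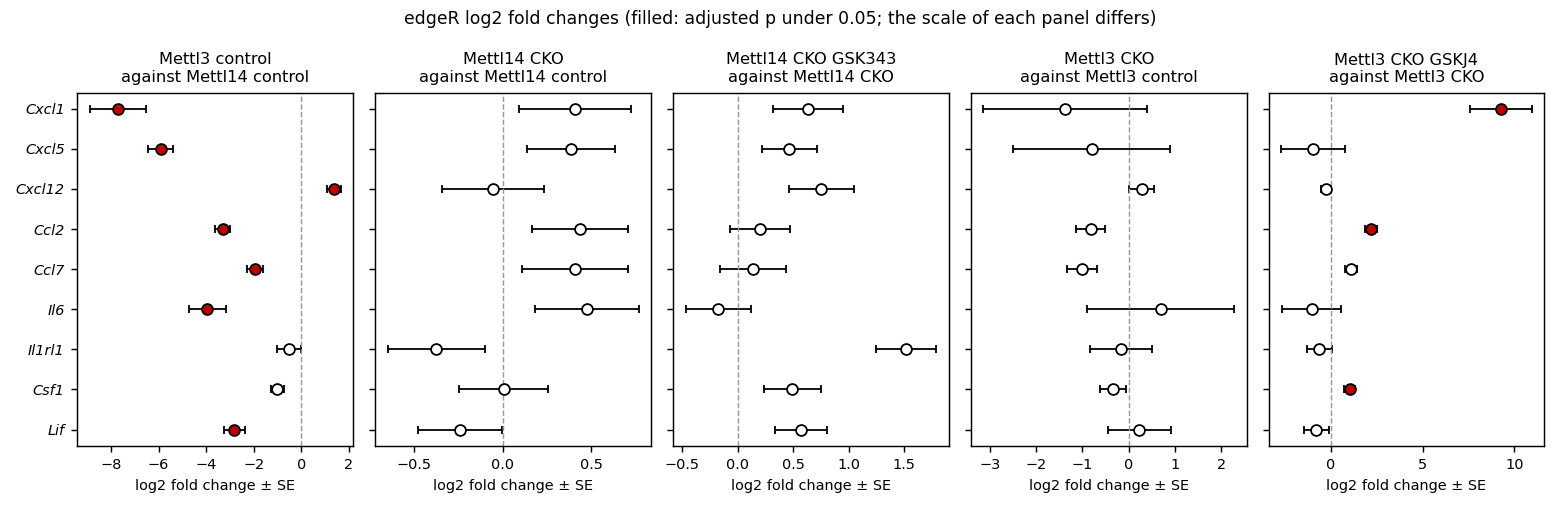
Fitted log2 fold change of each gene (points) with its standard error (bars) in the line comparison, each CKO against its control and each inhibitor against its CKO, filled where the edgeR adjusted p is under 0.05; the horizontal scale differs between panels. The line comparison holds 7 filled points and GSK-J4 against its CKO 3, and the other panels hold only open points.

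In the libraries labelled Mettl14 CKO no gene of the 9 was called against the control, against 0% of all 13882 genes tested (0 genes called, edgeR). All 9 genes overlapped between the CKO and its control (in CPM without TMM scaling, Lif lay wholly lower), where 2.79% of genes lay wholly higher and 4.76% wholly lower. The log2 changes ran from -0.37 for Il1rl1 to 0.47 for Il6, 6 of them positive, and every adjusted p was 1.00. None of the 9 genes had an unadjusted p under 0.05 (208 of all genes did), and DESeq2 and limma voom called no gene either. The positive values of the Cxcl1, Ccl2 and Ccl7 changes rested on CKO replicate 1: without it they were -0.22, -0.01 and -0.13.

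With GSK343, Il1rl1 had the largest log2 change of the 9 genes, with a mean of 156 ± 35.5 CPM against 55.8 ± 17.6 in the CKO. None of the 9 was called against the CKO, where 0.0288% of all genes were (4 of 13882), and 3 of the 9 had an unadjusted p under 0.05. Cxcl5, Cxcl12, Il1rl1 and Lif lay wholly above the CKO libraries, 4 of 9 genes against a background of 4.19%, and none wholly below, against 5.06%. The log2 change was 1.52 ± 0.27 for Il1rl1 (edgeR adjusted p = 0.0753), 0.75 ± 0.29 for Cxcl12 (0.738), 0.63 ± 0.31 for Cxcl1 (0.887) and 0.57 ± 0.24 for Lif (0.773). DESeq2 and limma voom each called 1 of the 9 genes, Il1rl1 (adjusted p = 0.000496 and 0.00364). Il1rl1 was called under 4 of the 8 other settings, among them no filter (edgeR adjusted p = 0.000194). The 0.0288% holds for the edgeR calls only. No share of all genes stands beside the counts by unadjusted p, DESeq2 or limma voom, so they are not read against a background. Il1rl1 was called without CKO replicate 1 (1.59, adjusted p = 0.037), without GSK343 replicate 3 (1.68, 0.0466) and without both of the shallowest libraries (1.88, 0.0282). Cxcl1 was called without CKO replicate 1 (1.25, 0.037).

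Set against the Mettl14 control, the GSK343 group had 9 positive values, none called, where 0.166% of all genes were called (23 of 13882; 0.151% higher and 0.0144% lower). An unadjusted p under 0.05 was found for 5 of the 9 genes, and DESeq2 called 1 and limma voom 3. The 0.166% holds for the edgeR calls only, and no share of all genes stands beside these other counts, so they are not read against a background. Cxcl1, Cxcl5, Cxcl12, Ccl2, Ccl7 and Il1rl1 lay wholly above the controls, 6 of 9 against 3.99% of genes, and none wholly below, against 7.08%. The values were 1.14 ± 0.27 for Il1rl1 (edgeR adjusted p = 0.137), 1.04 ± 0.31 for Cxcl1 (0.507) and 0.85 ± 0.25 for Cxcl5 (0.441), down to 0.30 for Il6. Both GSK343 comparisons share the GSK343 libraries. The summed fibroblast markers were 19879 to 20789 CPM with GSK343, below the 25748 to 31148 CPM of the controls, and their part in these values was not tested.

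In the Mettl3 CKO the monocyte attractants Ccl2 and Ccl7 had their lowest group means, at 59.6 ± 18.3 and 47.8 ± 6.83 CPM against 106 ± 13.5 and 96.4 ± 7.34 in the control. No gene of the 9 was called, against 0% of all 16782 genes tested (0 called by edgeR, 315 at an unadjusted p under 0.05, 5 called by DESeq2 and 6 by limma voom). The number of the 9 genes at an unadjusted p under 0.05 was 2, and limma voom called none of the 9 and DESeq2 none of the 8 for which it gave an adjusted p (all but Cxcl1). With no low-count filter Cxcl1 was called lower (adjusted p = 0.00619). Ccl2 and Ccl7 lay wholly below the control, 2 of 9 against 6.82% of genes, and none lay wholly above, against 6.75%. Their log2 changes were -0.83 ± 0.31 and -1.01 ± 0.33, each with an edgeR adjusted p of 1.00. The Cxcl1 change of -1.37 ± 1.77 rested on a few counts and moved between -3.54 and 0.01 as single libraries were left out. The summed fibroblast markers were 32807 to 36620 CPM in the CKO, above the 20926 to 30433 CPM of its control, and their part in these values was not tested.

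The difference of the knockout effects, Mettl14 minus Mettl3, was 1.40 ± 0.47 for Ccl7, 1.23 ± 0.43 for Ccl2 and 1.15 ± 0.77 for Cxcl5, and 1.75 ± 1.75 for Cxcl1, whose Mettl3-line counts were near 0. No gene was called (0% of 16326, edgeR adjusted p = 1.00 for all 9). An unadjusted p under 0.05 was found for 2 of the 9 genes and 366 of all genes, DESeq2 called 18 genes and limma voom none, and neither called any of the 9.

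GSK-J4 in the Mettl3 CKO went with higher Cxcl1, Ccl2 and Csf1. Mean Ccl2 was 264 ± 118 CPM with the inhibitor and 59.6 ± 18.3 without, Csf1 308 ± 124 and 157 ± 11.4, and Cxcl1 660.3 ± 1101 and 1.05 ± 1.49. These 3 of the 9 genes rose, where 3.96% of 16782 genes were called higher, 9.07% lower and 13% in all. All 3 also lay wholly above the CKO, against 10.9% of genes, and none lay wholly below, against 23.8%. In CPM without TMM scaling, Ccl7 lay wholly above the CKO too. Log2 changes were 2.19 ± 0.31 for Ccl2 (edgeR adjusted p = 0.00145), 1.02 ± 0.28 for Csf1 (0.0391) and 9.26 ± 1.70 for Cxcl1 (0.019). Ccl7 was at 1.09 ± 0.33 (0.0538) and so not called, but it was called higher under 4 of 7 other settings (adjusted p = 0.0109 with DESeq2, 0.0257 with no filter, 0.0292 over all 18 libraries and 0.0439 with DESeq2's size factors in edgeR). Cxcl1 was not called with limma voom (0.124) or with only the 2 groups fitted (0.0523). Csf1 was not called with only these groups (0.0848) or with the replicate block (0.0609). The 5 others, Lif (-0.80), Cxcl12 (-0.28), Il1rl1 (-0.63), Il6 (-1.06) and Cxcl5 (-0.99), had negative values and were not called.

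Only the Ccl2 call held in all 6 fits without 1 library. Cxcl1 lost its call without CKO replicate 1 (8.84, 0.082), CKO replicate 2 (8.63, 0.0928) or GSK-J4 replicate 1 (4.43, 0.138), where the values in brackets are the log2 change and the adjusted p. The size of the Cxcl1 change was set by GSK-J4 replicate 1, at 1932 CPM, since the other two were at 24.3 and 24.5 CPM. Csf1 lost its call without CKO replicate 1 (1.05, 0.108), CKO replicate 2 (0.91, 0.18), CKO replicate 3 (0.96, 0.139), GSK-J4 replicate 1 (0.85, 0.0978) or GSK-J4 replicate 3 (0.59, 0.163). Without GSK-J4 replicate 2, Il1rl1 fell (-2.09, edgeR adjusted p = 0.0201) and Ccl7 rose (1.36, 0.00674). Without GSK-J4 replicate 1, Cxcl5 and Il6 were called lower (adjusted p = 0.0311 and 0.00338), with no count in the libraries that remained and hence no fold.

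Against the Mettl3 control, in a comparison that uses the same GSK-J4 libraries, 2 of the 9 genes rose with GSK-J4, Ccl2 (1.37 ± 0.31, edgeR adjusted p = 0.0185) and Cxcl1 (7.89 ± 1.58, 0.0309), where 3.16% of genes were called higher, 8.25% lower and 11.4% in all. Both lay wholly above the control (10.4% of genes), and Cxcl5 lay wholly below (24.2%), though it overlapped in CPM without TMM scaling. Ccl2 lost its call without control replicate 1 (1.25, 0.0921), control replicate 2 (1.26, 0.0874), control replicate 3 (1.43, 0.0609) or GSK-J4 replicate 3 (0.82, 0.0613), and Cxcl1 without control replicate 1 (7.60, 0.112), control replicate 2 (7.29, 0.0948), control replicate 3 (9.27, 0.0749) or GSK-J4 replicate 1 (3.00, 0.274). Csf1 stood at 0.68 ± 0.28 (0.149) and was called without GSK-J4 replicate 2 (0.94, 0.0163), as was Il1rl1, lower (-2.27, 0.0154). Without GSK-J4 replicate 1, Cxcl5 and Il6 were called lower, both then at 0 (adjusted p = 0.0231 and 0.00501). Beside these values, the fibroblast markers were lower with GSK-J4 (11 of 12 called lower against the CKO, with a median log2 change of -3.63), and epithelial markers summed to 45.2 to 212 CPM against at most 11.7 CPM in the other Mettl3 libraries. Their part in the changes of the 9 genes was not tested.

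Within the Mettl14 line, 5 of the genes varied together from library to library. As deviations of log2 CPM from the group mean over the 9 libraries, the 10 pairs among Cxcl1, Cxcl5, Ccl2, Ccl7 and Il6 had Pearson correlations from 0.644 to 0.977. CKO replicate 1 was high for them, with deviations of 0.93 for Cxcl1, 0.70 for Ccl2 and 0.62 for Il6. CKO replicate 3, at -0.73, -0.63 and -0.77, was low. The 10 pairs of these 5 genes with Il1rl1 or Csf1 ran from -0.525 to -0.0846. Their pairs with Cxcl12 (0.131 to 0.517) and with Lif (0.0964 to 0.449) were all positive, though lower than those among the 5. The 5 genes were picked from these same libraries, so their high range is no independent support, and no other gene pairs were set beside them. These values share library depth and scaling, and describe these libraries only.

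**Figure D3:**
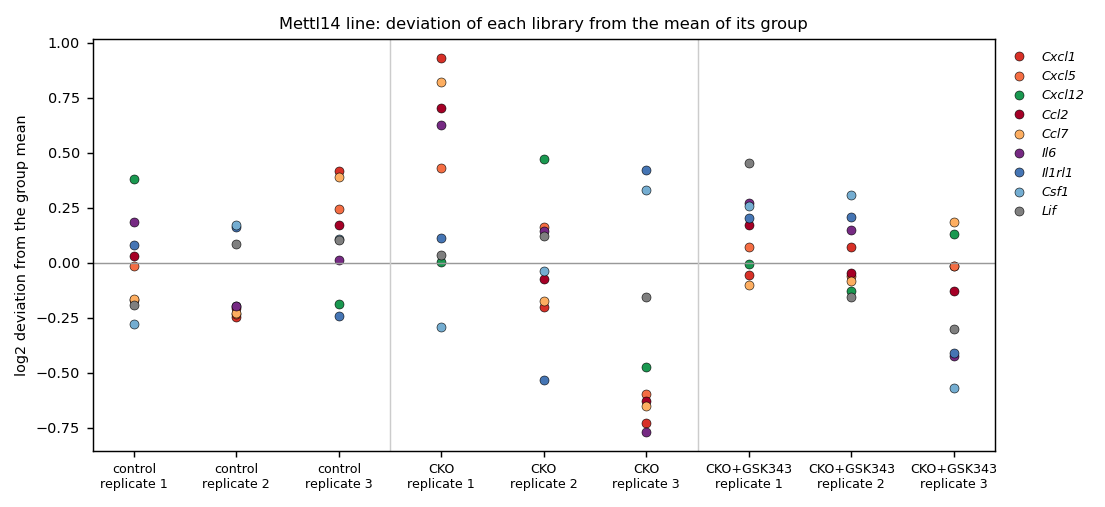
Deviation of the log2 level of the 9 genes from their group mean (vertical axis, points colored by gene) in each of the 9 Mettl14-line libraries (horizontal axis). Cxcl1, Cxcl5, Ccl2, Ccl7 and Il6 are high together in CKO replicate 1 and low together in CKO replicate 3, the second shallowest library.

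The genes were also set beside their neighbours on the chromosome. Cxcl5 and Cxcl1 lie on chromosome 5 in 1 cluster with Ppbp, Pf4, Cxcl3, Cxcl15 and Cxcl2. Cxcl2, a close relative of Cxcl1, was at 9.98, 23.2 and 22.4 CPM in the Mettl14 control, at 0, 0 and 0 in the Mettl3 control and at 259, 0 and 0 with GSK-J4. Like Cxcl1, it was high in GSK-J4 replicate 1 alone, whereas Cxcl3, at 8.11, 22.1 and 12.2 CPM in the Mettl14 control, had no count in any GSK-J4 library. Cxcr2, the neutrophil receptor of these chemokines, was at 0 in 13 of 18 libraries and reached 29.5 CPM in the GSK-J4 group, where its other 2 libraries were at 0.

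Ccl2 and Ccl7 lie on chromosome 11 beside Ccl11, Ccl12 and Ccl8, and these neighbours did not move alike with GSK-J4. Ccl8, another monocyte attractant, was at 191, 189 and 238 CPM in the Mettl14 control, 536, 235 and 158 in the CKO, 85.3, 98.1 and 154 in the Mettl3 control and 6.95, 0 and 0 with GSK-J4. Ccl11, an eosinophil attractant, was at 25.4, 10.7 and 28.6 CPM in the Mettl3 control and had no count in the 3 GSK-J4 libraries. Against the CKO, Ccl8 fell (-4.97 ± 1.02, edgeR adjusted p = 0.0147) and so did Ccl11 (adjusted p = 0.00214, no fold given because its GSK-J4 libraries were at 0), while Ccl2 rose. The plot of both clusters shows the Ccl2 and Ccl8 levels parting with GSK-J4.

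**Figure D4:**
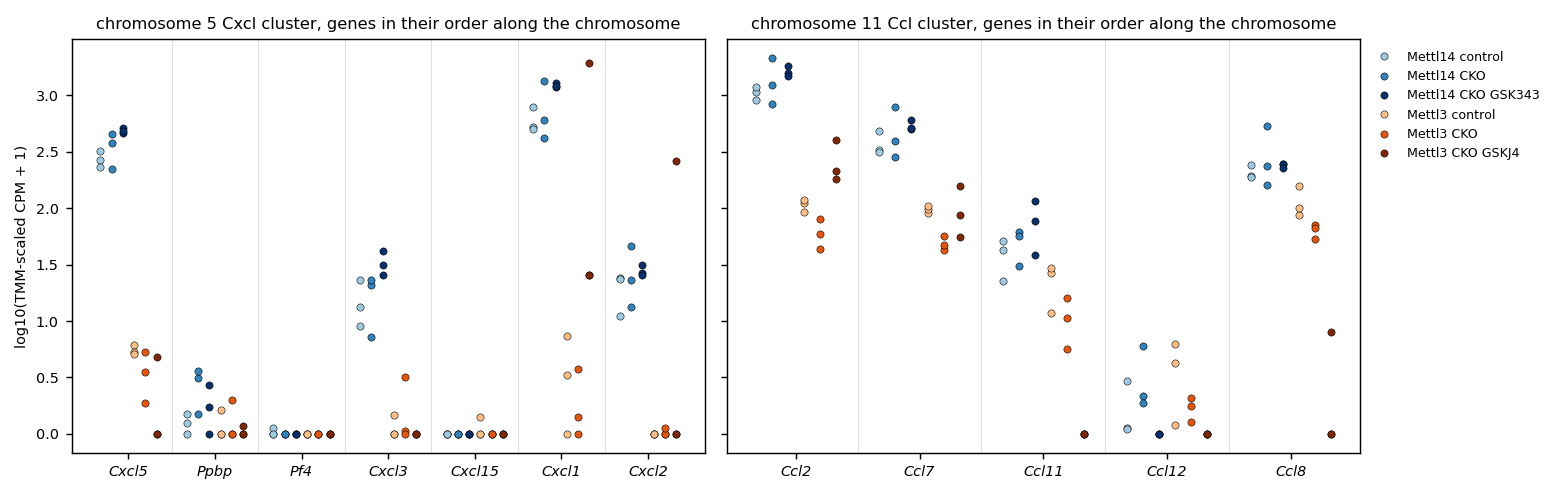
Level in every library (points colored by group, vertical axis log10 of TMM-scaled CPM plus 1) of the genes of the chromosome 5 and chromosome 11 chemokine clusters, in chromosome order. With GSK-J4, Ccl2 and Ccl7 average 264 and 98.3 CPM, while Ccl11 and Ccl12 have no count and Ccl8 averages 2.32 CPM.

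The genes with the most similar pattern were found by Pearson correlation of log2 CPM over the 15 libraries without GSK-J4, among 10268 protein-coding genes. These libraries fall into 2 clusters, the lines, so the values over 15 mostly repeat the line difference and the values within the 9 Mettl14 and the 6 Mettl3 libraries are given too. For Ccl2 the nearest gene was Sod2, a mitochondrial superoxide dismutase (r = 0.991 over 15 libraries, 0.896 over 9 and 0.988 over 6), followed by Saa3 (0.983, 0.514 and 0.688). Sod2 also stood nearest to Ccl7 (0.987, 0.875 and 0.935), before Cebpd (0.985, 0.981 and 0.721). Cxcl1 was nearest to Nfkbiz (0.9802, -0.147 and 0.931), whose value was negative within the Mettl14 line, and to Saa3 (0.974, 0.395 and 0.698).

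In the same order of 15, 9 and 6 libraries, the nearest genes to Cxcl5 were Penk (0.989, 0.736 and 0.909) and Lcn2 (0.987 and 0.812, with Lcn2 at 0 in all 6 Mettl3 libraries). Il6 was nearest to Serping1 (0.982, 0.925 and 0.302) and Tmem176b (0.982, 0.619 and 0.696), and Lif to Mmp3 (0.979, 0.248 and 0.7598) and Serpina3i (0.975, 0.2905 and 0.584). Cxcl12 was nearest to Timp3 (0.926, 0.767 and 0.0846) and Cthrc1 (0.925, 0.747 and 0.448). Csf1 was nearest to Slc25a37 (0.927, 0.733 and 0.256) and Slc11a2 (0.926, 0.784 and -0.0218). Il1rl1 had the weakest neighbours of the 9 over 15 libraries, Fads2 (0.809, 0.832 and 0.186) and Gpr149 (0.805, 0.771 and 0.507). Timp3, Slc11a2 and Fads2 were thus near their genes over 15 and 9 libraries, with far lower correlations within the Mettl3 line.

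Most receptors of these factors were scarce. Il6st, the shared subunit for Il6 and Lif, was measured in every library (127 to 346 CPM), as was Il1rap, the partner of Il1rl1 (11.3 to 179 CPM). Lifr ranged over 0 to 77.3 CPM, Il6ra over 1.102 to 16 and Cxcr4, the receptor of Cxcl12, over 0 to 16.2. Ccr2 was at 0 in 11 of the 18 libraries, and Csf1r did not pass 5.76 CPM in any. Il33, the ligand of Il1rl1, was at 0 in 9 libraries.

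Several NF-κB pathway genes were also lower in the Mettl3 controls. Of 29 genes tested from that list, 5 were called lower and none higher against the Mettl14 controls, where 0.76% of all genes were called lower, with a median log2 difference of -0.47 beside 0.01 over all genes. Nfkbiz, a nuclear co-activator induced by NF-κB, averaged 34.9 CPM against 180.1 (-2.37 ± 0.34, edgeR adjusted p = 0.000794). Nfkb1, which encodes the p50 subunit precursor, averaged 55.5 against 175 (-1.66). Nfkbia, the inhibitor that NF-κB itself induces, averaged 24.6 against 110.0 (-2.16). Of 29 other chemokine and cytokine genes 6 were called lower and none higher, with a median of -0.87, or -1.06 with 4 genes at 0 in 1 group set to the bound that 3 counts a library allow and 1 left out as at or under it in both. Among them were Cxcl16 (15.3 against 115 CPM) and Il1a (0.0471 against 26.2 CPM), and Ccl5 had no count in the Mettl3 controls and 2.23 CPM in the Mettl14 controls.

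Of the 12 genes tested from the mRNA stability list (labelled AU-rich mRNA decay), 1 was called lower in the Mettl3 controls. It was Zc3h12a, a nuclease that degrades cytokine mRNAs including that of Il6, at 6.44 against 107 CPM. The genes of this list were not checked for action through AU-rich elements, so the list is not tied to the sites printed above. Of 10 receptors and partners, 1 was called lower, Il1rap, at 30.4 against 112 CPM. Beside these 2 lists, 0.76% of all genes were called lower. The smallest p among 15 JAK-STAT3 pathway genes was that of Jak2 (-0.73 ± 0.28, edgeR adjusted p = 0.588), and among 15 transcription factors known at cytokine promoters that of Cebpd (-1.71 ± 0.47, adjusted p = 0.137). The 12 fibroblast markers had a median difference of -0.26 between the controls.

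With GSK-J4, most of these lists held genes called in each direction. Against the Mettl3 CKO, 3 of 29 NF-κB genes were called higher and 2 lower, where 3.96% and 9.07% of all genes were (median 0.17, beside -0.06 over all genes). Nfkbia rose from 19.6 to 112 CPM (2.57 ± 0.46, edgeR adjusted p = 0.00593), Tnfrsf1a, a receptor of tumor necrosis factor, fell (-1.55), and Bcl3, at 6.89 CPM in the CKO, had no count with GSK-J4. Of the cytokine promoter factors 4 were called higher and 1 lower: Junb (1.67) and Jun (1.06), subunits of AP-1, rose and Cebpa (-2.93) fell. In the JAK-STAT3 list 2 rose, Pim1 (2.55) and Pim3 (2.02), kinases induced by STAT signalling, and 2 fell, among them Stat3 itself (-1.57). In the mRNA stability list Rc3h1 (1.27) and Elavl1 (0.74) rose and Zfp36l1 (-2.23) fell.

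Other chemokines and cytokines were called only lower with GSK-J4 against the CKO, 5 of 18 tested (median -2.53, or -0.70 with 7 genes at 0 in 1 group at their bound and 0 left out). Kitl, stem cell factor, was at 8.22 CPM in the CKO and had no count with GSK-J4. Of 11 receptors 1 was called lower, Osmr, a receptor of the Il6 family, from 64.8 to 16.4 CPM (-1.92 ± 0.41, edgeR adjusted p = 0.0129). Of all genes, 9.07% were called lower in this comparison, so 1 of 11 receptors lay near that share. For GSK343 against its CKO, the genes with the smallest p in their lists included Fos (2.01 ± 0.43, adjusted p = 0.128) and Zfp36 (1.62, 0.248).

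**Figure D5:**
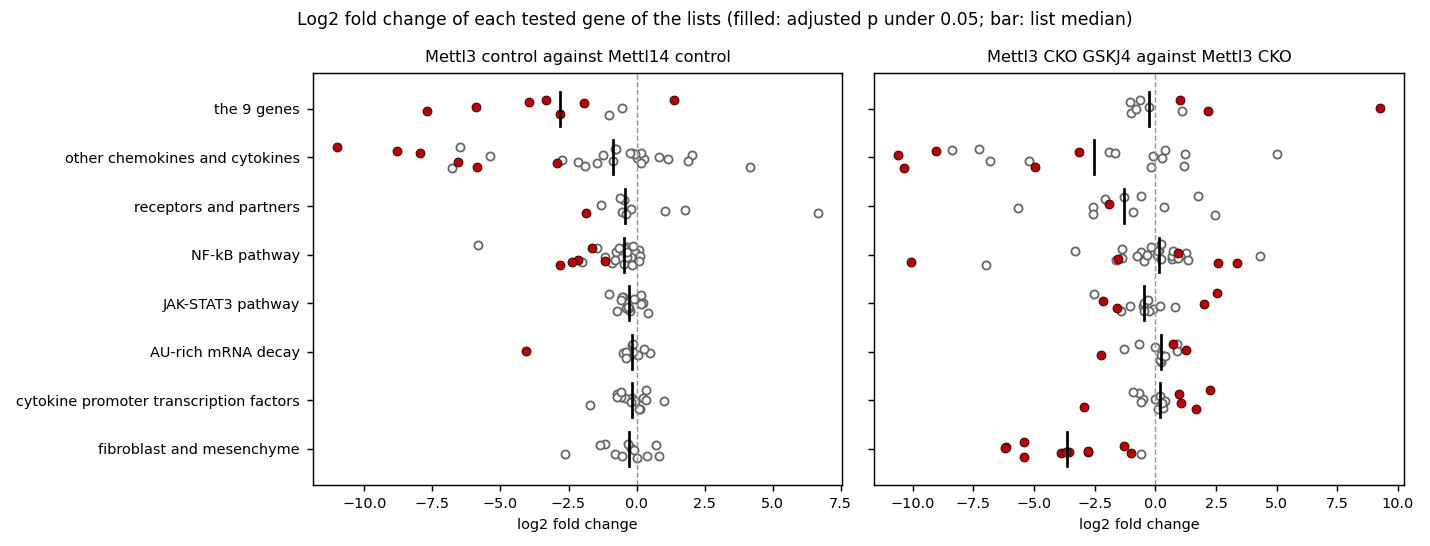
Log2 difference of the tested genes of each fixed list (points, with the list median as a bar) for the Mettl3 control against the Mettl14 control and for GSK-J4 against the Mettl3 CKO, called genes filled. Points far to the left include genes with no count in 1 group, whose fitted position depends on the prior count and is no bound. Fibroblast markers lie near 0 between the controls (median -0.26) and at a median of -3.63 with GSK-J4.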

How the data were processed

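Poly(A) RNA of 18 embryoid-body libraries was sequenced. Per the submitters' processing notes, the authors processed reads with CASAVA and Trimmomatic 0.38, aligned them to mm10 with HISAT2 2.1.0 and counted them with HTSeq; which annotation release and which strand setting the counting used is not given in the sources used here. The deposited values are whole-number counts per gene, not normalized. Rows that HTSeq writes for reads without a gene were left out, and no column lacked a sample. Of 54446 gene identifiers, 54409 matched GENCODE M21, which gave symbols and exon lengths.

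Groups came from the sample titles. Counts were tested with edgeR 4.0.16 (R 4.3.3; quasi-likelihood, filterByExpr, TMM) over all genes, per line (9 libraries) or over all 18 libraries for the line and interaction contrasts, with Benjamini-Hochberg adjustment and a threshold of 0.05. The biological coefficient of variation was 0.394 in the Mettl14 line and 0.843 in the Mettl3 line. It does not set by itself which changes were called, since the adjustment depends on all genes tested. With GSK343 against the CKO, Il1rl1 at 1.52 ± 0.27 was not called (edgeR adjusted p = 0.0753). With GSK-J4 against the CKO, Csf1 at 1.02 ± 0.28 was called (edgeR adjusted p = 0.0391). All 9 genes passed the low-count filter in every fit. Alternatives were no filter, size factors as in DESeq2 1.42.0 and its test, limma 3.58.1 voom with quality weights, other sets of libraries, a replicate block and each library left out; fits without the 2 shallowest or without the GSK-J4 libraries were added after seeing the data. Scripts were tested on simulated data. Libraries of a group differed by far more than sampling noise (chi-square per degree of freedom 10.2 to 71.0), so none was merged. The 9 genes and the gene lists were chosen with earlier results of these data known. Other genes were named by smallest p within a list (up to 3 called, otherwise 1) and, for likeness, as the 2 protein-coding genes at 5 CPM or more with the highest correlation of log2 CPM (prior count 2). Shared sequence could divert reads from at most 0.693% of 50-base stretches of any of the 9 genes (Cxcl5).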

Additional observations from a re-analysis of the deposited data

How the results depend on the processing

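The number of the 9 genes called stayed at 0 for the Mettl14 CKO against its control in 6 fits without 1 library and under 8 other settings. For GSK343 against the CKO it was 0, and between 0 and 2 without single libraries, and 1 with no filter, with DESeq2, with voom and without the 2 shallowest libraries. For GSK343 against the control it was 0, also in the fits without 1 library, but 2 with no filter and with only the groups compared, 1 with DESeq2 and without the 2 shallowest libraries, and 3 with voom. For the Mettl3 CKO and for the difference of the knockout effects it was 0, also in the fits without 1 library, but 1 with no filter (Cxcl1). For GSK-J4 against the CKO it was 3, between 1 and 5 without single libraries, 1 with only the groups compared, 2 with voom and the replicate block, and 4 with no filter, with DESeq2's size factors and over all 18 libraries, where Ccl7 was added. For GSK-J4 against the control it was 2, between 0 and 4 without single libraries, 1 with DESeq2, voom and only the groups compared, and 3 over all 18 libraries. DESeq2 gave Cxcl1 no adjusted p in either GSK-J4 comparison or in the Mettl3 CKO. For the line comparison it was 7, between 4 and 6 without single libraries, the 4 without Mettl3 control replicate 1, and 8 with no filter, with voom, with only the groups of the contrast and without the GSK-J4 libraries, where Csf1 was added. With DESeq2 it was 7, with Csf1 in place of Il6. The counts under other settings stand here without the share of all genes called under the same setting. The cause of these shifts was not tested.

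Of 1032 values of single genes under other settings, 920 kept direction and side of the threshold, and 43 turned sign, none of them called. Those that turned are given as log2 changes. In the Mettl14 CKO, Cxcl1 (0.41 as reported) was at -0.22 to 0.68 without single libraries, and Cxcl12 (-0.055 as reported) was at 0.25 (voom), 0.11 (without the 2 shallowest) and -0.34 to 0.15 without single libraries. Also, Ccl2 (0.44 as reported) was at -0.0080 to 0.67 without single libraries, and Ccl7 (0.41 as reported) was at -0.13 to 0.65 without single libraries. Also, Csf1 (0.0049 as reported) was at -0.019 (no filter), -0.076 (voom), -0.020 (all 18 libraries), -0.19 (without the 2 shallowest) and -0.20 to 0.13 without single libraries. For GSK343 against the CKO, Ccl2 (0.20 as reported) was at -0.0038 (without the 2 shallowest) and -0.040 to 0.64 without single libraries, and Ccl7 (0.14 as reported) was at -0.23 (without the 2 shallowest) and -0.11 to 0.67 without single libraries. Also, Il6 (-0.18 as reported) was at -0.43 to 0.17 without single libraries. In the Mettl3 CKO, Cxcl1 (-1.37 as reported) was at -3.54 to 0.013 without single libraries, and Il1rl1 (-0.17 as reported) was at -0.50 to 0.36 without single libraries. For GSK-J4 against the control, Cxcl12 (0.0012 as reported) was at -0.081 (no filter), -0.065 (replicate block), -0.015 (voom), -0.027 (all 18 libraries), -0.018 (only the groups compared) and -0.36 to 0.099 without single libraries, and Ccl7 (0.071 as reported) was at -0.0080 (no filter), -0.021 (replicate block), -0.21 (voom) and -0.54 to 0.35 without single libraries. Also, Il6 (-0.37 as reported) was at -9.91 to 0.21 without single libraries. For the difference of the knockout effects, Cxcl12 (-0.36 as reported) was at 0.051 (voom), and Il6 (-0.25 as reported) was at 0.031 (without the 2 shallowest) and -0.60 to 0.17 without single libraries. Also, Il1rl1 (-0.22 as reported) was at -0.75 to 0.12 without single libraries. For Il6 against the control, -9.91 comes from libraries with no count and is no bound. The cause of the turns was not tested.

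Same-numbered libraries showed no strong shared deviation (21 correlations from -0.21 to 0.15, 3 over 0.1). With 3 libraries a group that differ in depth, this check cannot exclude that the numbers pair the samples. With the replicate block, GSK-J4 against the CKO called 2 of the 9 genes in place of 3, as Csf1 was lost. No other count of the 9 genes changed. Size factors as in DESeq2 moved the median of all genes for GSK-J4 against the control from -0.08 to 0.02, and Ccl2 and Cxcl1 rose relative to either. Depth limits the values of the libraries of 721853 and 1303697 counts. Cxcl5 and Il6 had no count in GSK-J4 replicates 2 and 3, both deeper than replicate 1, and Cxcl1 had none in Mettl3 control replicate 2, the deepest of its group, and CKO replicate 2, the shallowest of its group. Fitted changes of these 3 genes in that line rest on few counts.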
